A study of Homo sapiens with 6 samples.

Results

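The genes described here are the 5 NF-kB subunits and 5 of their inhibitors, measured in MDA-MB-231 cells with and without overexpression of ABI2. They were chosen by name from the deposited expression table: the subunits NFKB1, NFKB2, REL, RELA and RELB, the IkB proteins NFKBIA, NFKBIB, NFKBIE and NFKBIZ, and the feedback inhibitor TNFAIP3. All 10 were found, 10 of 20260 complete rows, and all 10 passed the filter on low counts. MDA-MB-231 is an established human triple-negative breast cancer line with a mesenchymal-like phenotype. In 3 samples the cells had been transfected with a plasmid carrying ABI2 (ABI2 libraries), and in 3 samples with an empty vector (control libraries). ABI2 encodes an adaptor of the WAVE complex, which drives branched actin assembly, and the series asks what it does in these cells. The plasmid's promoter, the share of cells transfected and the time from transfection to harvest are not given in the labels. The labels do not say whether the replicates came from separate cultures, so the p-values reflect the spread among these 6 samples, and that spread may be technical.

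NF-kB factors are dimers of subunits that share a Rel homology domain for DNA binding and dimerisation. In resting cells IkB proteins hold them in the cytoplasm. In the canonical pathway, receptors such as those for TNF and interleukin-1 activate the IkB kinase complex, IkB is marked for destruction, and dimers of RELA or REL with the processed product of NFKB1 enter the nucleus. In the noncanonical pathway, the kinase MAP3K14 triggers the processing of the NFKB2 precursor, whose product pairs with RELB. Several inhibitors are themselves NF-kB target genes and close a negative feedback loop. MDA-MB-231 is known as a line with constitutive NF-kB activity. The measurements here are of mRNA, and processing, phosphorylation or nuclear entry of the proteins was not measured.

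The genes were identified by the identifiers and GRCh38 coordinates of the table. The subunit genes are NFKB1 (ENSG00000109320, chr4:102501329-102617302, plus strand), NFKB2 (ENSG00000077150, chr10:102394110-102402529, plus strand), REL (ENSG00000162924, chr2:60881521-60931610, plus strand), RELA (ENSG00000173039, chr11:65653596-65663094, minus strand) and RELB (ENSG00000104856, chr19:45001430-45038198, plus strand). The inhibitor genes are NFKBIA (ENSG00000100906, chr14:35401511-35404746, minus strand), NFKBIB (ENSG00000104825, chr19:38899700-38908893, plus strand), NFKBIE (ENSG00000146232, chr6:44258166-44265788, minus strand), NFKBIZ (ENSG00000144802, chr3:101827991-101861022, plus strand) and TNFAIP3 (ENSG00000118503, chr6:137867188-137883312, plus strand).

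The libraries held 38453152 to 40309690 counts. ABI2 itself stood at 221, 221 and 225 CPM (counts scaled by TMM library size to a common total) in the ABI2 libraries, against 83.0, 81.1 and 83.4 CPM in the control libraries (log2 fold change 1.43 ± 0.04, SE; edgeR adjusted p = 1.23e-05). Its log2 fold change was 2.78 with correction for transcript GC, 1.73 with correction for coding GC and 2.91 on log2(TPM + 1), so the size of the overexpression depends on the scale. The line's markers VIM, CD44, FN1, AXL, MSN and CAV1 lay between 37.0 and 3376 TPM (the deposited level per transcript length), and PGR and CDH1 had no count in any library. ERBB2, which is low in this line, was measurable at 27.0 to 47.4 TPM. Of 9 markers of leukocytes, fibroblasts and endothelium, 6 had no count in any library and the highest, PECAM1, reached 2.48 TPM. Expression differed between the groups across the transcriptome: of 13325 genes tested, 35.1% were higher and 38.0% lower in the ABI2 libraries, and the change of a gene went with the GC content of its transcript. Genes were sorted by GC content into 10 bins of equal size. In the lowest bin (31.8% to 39.1% GC), 92.6% fell and 0.526% rose. In the highest bin (62.6% to 74.7%), 73.9% rose and 0.901% fell. Whether this trend is technical or biological cannot be told from these files. The members' results are therefore given from the planned fit and from a fit corrected for transcript GC content. In these bulk samples, a change in the share of cells that express a gene cannot be told apart from a change in its mRNA per cell.

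The promoters of the feedback genes are shown first, because NF-kB acts on several members of its own family through short kappaB elements. Promoter sequences came from RefSeq (GRCh38.p14), and 8 of the 10 members matched, with 14 start sites between them; RELB and NFKBIE did not. In the 250 bases before each start, 7 of the 8 members held at least 1 match to the kappaB consensus on either strand. Over the whole promoter table, 6.28% of genes and 5.21% of windows held a match. The 3 promoters that follow each carry a match upstream of the annotated gene and are written 5′ to 3′ on the coding strand, with the matching bases in capitals.
NFKB1 (chr4:102501109-102501328, plus strand): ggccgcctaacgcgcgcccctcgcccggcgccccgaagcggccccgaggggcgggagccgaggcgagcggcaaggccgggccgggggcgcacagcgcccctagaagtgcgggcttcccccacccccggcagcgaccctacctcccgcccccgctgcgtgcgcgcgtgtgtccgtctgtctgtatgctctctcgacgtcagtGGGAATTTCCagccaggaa
NFKBIA (chr14:35404750-35404999, minus strand): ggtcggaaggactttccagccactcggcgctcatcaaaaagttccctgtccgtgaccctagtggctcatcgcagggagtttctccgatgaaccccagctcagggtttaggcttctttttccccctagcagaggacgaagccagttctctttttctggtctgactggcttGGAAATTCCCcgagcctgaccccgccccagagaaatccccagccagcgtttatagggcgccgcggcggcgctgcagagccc
NFKBIZ (chr3:101827740-101827989, plus strand): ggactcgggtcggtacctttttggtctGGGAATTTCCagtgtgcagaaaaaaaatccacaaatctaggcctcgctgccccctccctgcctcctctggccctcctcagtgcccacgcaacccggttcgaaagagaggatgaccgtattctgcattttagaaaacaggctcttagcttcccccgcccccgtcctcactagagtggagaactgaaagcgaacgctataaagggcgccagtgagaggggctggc
The NFKB1 stretch ends where the annotated gene begins. Counted upstream from the RefSeq start, the match began at base 49 in NFKB1, base 81 in NFKBIA and base 223 in NFKBIZ. A second NFKBIZ start had GGGGTTTCCC at base 239. TNFAIP3 held GGAAAGTCCC at base 67 and GGAAATCCCC at base 55. REL held GGGAAATTCC at base 47, overlapping a second match 1 base on. NFKB2 had none before its first start, GGGAATTCCC at base 107 and GGGGCTTTCC at base 78 before its second, and GGGGCTTCCC at base 176 and GGGACTTTCC at base 21 before the third; the match at base 107 overlapped another 1 base on. NFKBIB held GGGAATTTCC at base 28 before its second start, overlapping another match 1 base on. The 2 RELA windows held no match. A match describes these letters and not a bound site, and genes with matches included the member that fell and members that rose.

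Of the 5 subunits, 4 were higher and 1 was lower in the ABI2 libraries in the planned fit, where 35.1% of all genes were higher and 38.0% lower. With the GC correction 3 were higher and 0 lower, where 28.7% of all genes were higher and 22.5% lower (edgeR; at an unadjusted p under 0.05, REL was lower). RELB, the partner of processed NFKB2, stood at 50.7, 48.6 and 48.5 CPM in the ABI2 libraries, against 22.1, 22.2 and 24.7 CPM in the control libraries. The groups lay far apart, at a fold change of 2.14 (log2 fold change 1.10 ± 0.07, SE; edgeR adjusted p = 2.28e-05). NFKB2, the noncanonical precursor, stood at 147, 152 and 159 CPM in the ABI2 libraries, against 84.4, 84.3 and 91.1 CPM in the control libraries (log2 fold change 0.82 ± 0.06, edgeR adjusted p = 2.55e-05). RELA, the main transactivating subunit of the canonical pathway, had 136, 143 and 148 CPM in the ABI2 libraries, against 85.01, 92.7 and 88.7 CPM in the control libraries (log2 fold change 0.68 ± 0.06, edgeR adjusted p = 5.1e-05). In each of these genes every ABI2 library lay above every control library, which held for 37.8% of all genes. On the GC-adjusted level the groups overlapped for RELA. NFKB1, its partner precursor, rose least of the 4 in the planned fit, with 70.3, 63.7 and 67.2 CPM in the ABI2 libraries, against 48.6, 52.1 and 57.0 CPM in the control libraries (log2 fold change 0.35 ± 0.08, edgeR adjusted p = 0.00498). Its lowest ABI2 library lay 1.12 times above its highest control library.

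REL, the c-Rel subunit best known from lymphoid cells, went the other way and was scarce in both groups. It had 18, 31 and 22 counts in the ABI2 libraries, against 122, 134 and 120 counts in the control libraries. On the scaled level this was 0.463, 0.814 and 0.579 CPM in ABI2 libraries against 2.901, 3.289 and 3.004 CPM in control libraries. Every ABI2 library was thus below every control library, which held for 40.1% of all genes. REL was 4.94-fold lower in the ABI2 libraries (log2 fold change -2.30 ± 0.23, SE; edgeR adjusted p = 9.55e-05). Its annotated transcript is the most GC-poor of the members at 38.7%, and 9078 of its 11255 bases follow the coding sequence. In the annotation REL shares 5702 bases with AC010733.2, a noncoding gene on the same strand that was not analysed here. In the GC-corrected fit its log2 fold change came to -0.62 ± 0.24 and missed the threshold (edgeR adjusted p = 0.0643), although it passed there without ABI2 replicate 2, at -0.85 (edgeR adjusted p = 0.0293).

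**Figure D1:**
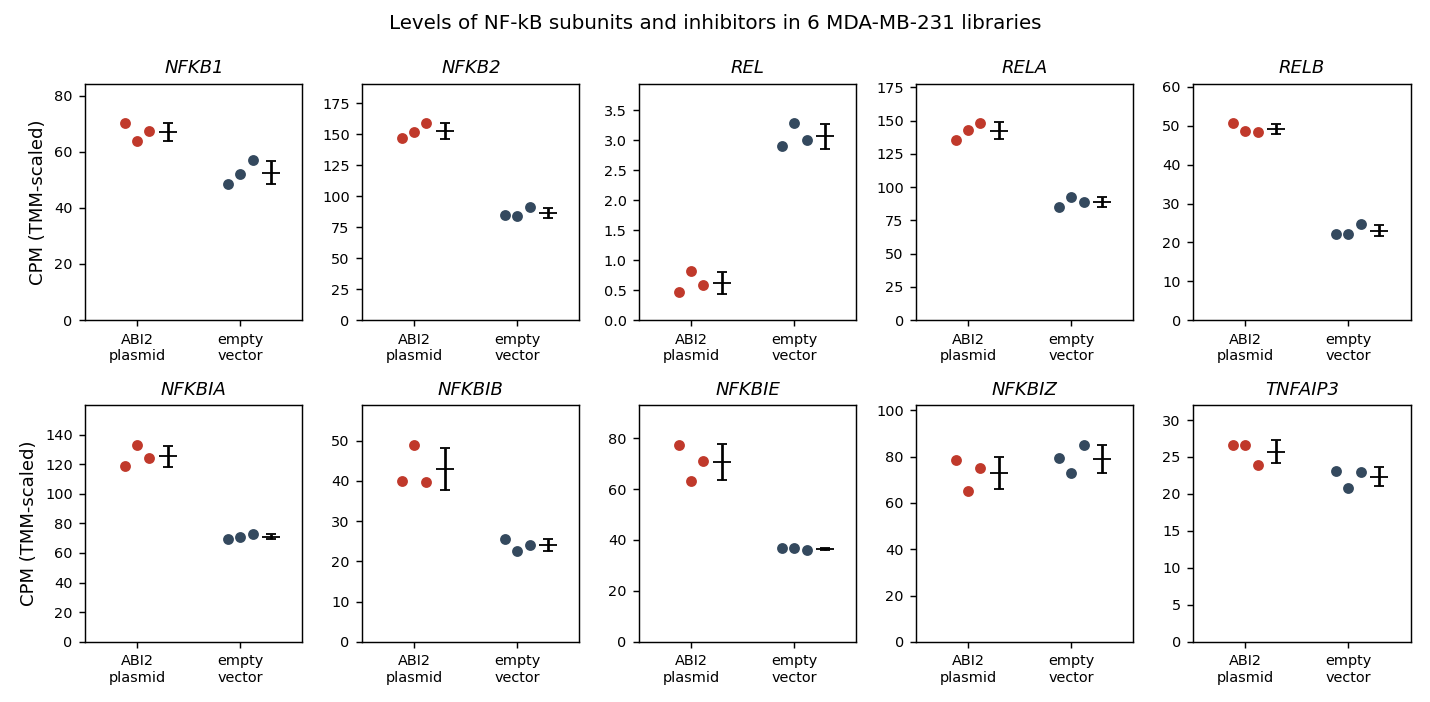
TMM-scaled CPM (y axis, from 0) of each of the 10 members in the 3 ABI2 plasmid and 3 empty vector libraries, 1 point per library, with the mean and SD to the right of the points. REL is lower in every ABI2 library, NFKBIZ overlaps between the groups, and the other members are higher in every ABI2 library, although TNFAIP3 did not pass the test. Of all genes, 37.8% were higher and 40.1% lower without overlap.

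The 3 classical IkB proteins, which mask the nuclear import signals of NF-kB dimers, were higher in the ABI2 libraries in the planned fit. Of all genes 35.1% were higher there, and 59.8% to 73.9% in the GC bins of these 3 genes. NFKBIA, IkB-alpha, the inhibitor that NF-kB re-induces fastest, had 119, 133 and 124 CPM in the ABI2 libraries, against 69.5, 71.0 and 72.7 CPM in the control libraries (log2 fold change 0.82 ± 0.06, SE; edgeR adjusted p = 2.84e-05). NFKBIE, IkB-epsilon, had 77.4, 63.2 and 71.0 CPM in the ABI2 libraries, against 36.7, 36.8 and 36.2 CPM in the control libraries (log2 fold change 0.95 ± 0.08, edgeR adjusted p = 5.76e-05). NFKBIB, IkB-beta, had 40, 49.0 and 39.8 CPM in the ABI2 libraries, against 25.5, 22.7 and 24.1 CPM in the control libraries (log2 fold change 0.83 ± 0.10, edgeR adjusted p = 0.000297). All 3 separated the groups completely, where 37.8% of all genes were higher without overlap. On the GC-adjusted level the groups were no longer separate for NFKBIB. NFKBIB overlaps SIRT2 by 163 bases on the opposite strand, and since the strand setting of the counting is not given, reads in that stretch cannot be assigned. SIRT2 averaged 61.9 ± 3.25 CPM in ABI2 and 34.4 ± 4.03 CPM in control libraries (SD, n = 3 each), and its part in the NFKBIB difference was not tested.

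The other 2 inhibitors did not pass in the planned fit. NFKBIZ, IkB-zeta, a nuclear IkB that acts as a cofactor at a subset of NF-kB targets, had 78.4, 65.2 and 75.2 CPM in the ABI2 libraries, against 79.3, 72.8 and 85.1 CPM in the control libraries, and the groups overlapped (log2 fold change -0.12 ± 0.09, SE; edgeR adjusted p = 0.283). TNFAIP3, the ubiquitin-editing enzyme that ends signalling from the TNF receptor, had 26.6, 26.6 and 24.0 CPM in the ABI2 libraries, against 23.2, 20.8 and 23.0 CPM in the control libraries. The groups did not overlap, but the difference of 0.21 ± 0.09 on the log2 scale missed the threshold (edgeR adjusted p = 0.0635). It passed without ABI2 replicate 3, at 0.26 (edgeR adjusted p = 0.0323), and with DESeq2, at 0.22 (DESeq2 adjusted p = 0.0307). In all, 7 of the 10 members were called higher and 1 lower, where 35.1% of all genes tested were higher and 38.0% lower. Their median log2 fold change was 0.75, against -0.01 over all genes. The groups did not overlap in 9 of the 10 members, 8 higher and 1 lower, where 37.8% of all genes were higher without overlap, 40.1% lower and 77.9% either. The share in either direction is near that of all genes.

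The members' fold changes lay along the GC trend of the transcriptome. Their transcripts had a median GC content of 56.5%, against 49.8% over all genes tested. RELB (65.4% GC) and NFKBIB (64.6%) lay in the bin with the highest GC content, where the median log2 fold change was 0.63. NFKB2, RELA and NFKBIE, at 60.0% to 61.1% GC, lay in the next bin, with a median of 0.61 and 72.1% of genes called higher. REL lay in the lowest bin, with a median of -1.84. RELB exceeded 96.5% of the genes of its bin, NFKBIE 91.8% and NFKBIA 91.1%, while RELA exceeded 61.1% and NFKB1 64.8%. NFKBIZ, at 46.2% GC, was at -0.12 in a bin whose median was -0.57 and in which 62% of genes fell.

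**Figure D2:**
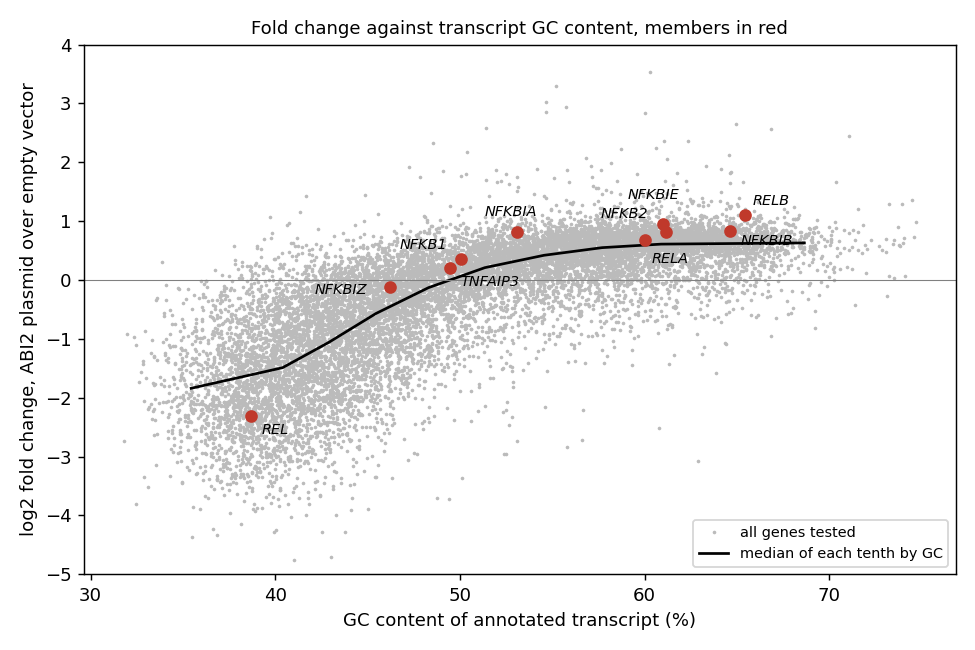
Log2 fold change of the planned fit (y axis, ABI2 plasmid over empty vector) against the GC content of the annotated transcript (x axis, percent) for 13314 genes with a GC value in grey, the median of each of 10 bins of genes by GC content as a black line, and the 10 members in red. Along the rising line, 9 of the 10 members lie above the median of their bin, and REL, at the low-GC end, lies below it at -2.30; 11 genes lie beyond the y axis.

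With the GC correction, 7 members were called higher and 0 lower by edgeR, where 28.7% of all genes were higher and 22.5% lower. At an unadjusted p under 0.05, 1 member, REL, was lower. On the GC-adjusted level the groups did not overlap in 8 members, where this held for 62.2% of all genes. The 7 were not the same as in the planned fit. NFKB1, NFKB2, RELB, NFKBIA and NFKBIE were called higher in both, with GC-corrected log2 fold changes of 0.33 ± 0.07, 0.24 ± 0.04, 0.50 ± 0.06, 0.53 ± 0.06 and 0.37 ± 0.09 (SE). RELA, at 0.12 ± 0.06, and NFKBIB, at 0.23 ± 0.10, were no longer called (edgeR adjusted p = 0.135 and 0.0998), although RELA passed without control replicate 2, at 0.18 (edgeR adjusted p = 0.0308), and NFKBIB without ABI2 replicate 3, at 0.31 (edgeR adjusted p = 0.0474). NFKBIZ turned round to 0.41 ± 0.10 (edgeR adjusted p = 0.0134), and TNFAIP3 passed at 0.25 ± 0.07 (edgeR adjusted p = 0.0275). The TNFAIP3 call was lost without ABI2 replicate 1 or 2 or any of the control libraries, with adjusted p between 0.0541 and 0.0938.

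The correction depends on which GC content is assigned to a gene. With the GC content of the coding sequence, an alternative chosen after seeing the data, 6 members were called higher and 0 lower by edgeR (at an unadjusted p under 0.05, 1 was lower), where 31.0% of all genes were higher and 23.4% lower. NFKB1 then had a log2 fold change of 0.80 ± 0.08, and RELA was called at 0.19 ± 0.06 (edgeR adjusted p = 0.0312). NFKBIZ, whose coding sequence has 53.02% GC against 46.2% for the whole transcript, had -0.19 and did not pass (edgeR adjusted p = 0.108). TNFAIP3 was at 0.19 (edgeR adjusted p = 0.0662). NFKB1, NFKB2, RELB, NFKBIA and NFKBIE were called higher in the planned fit and under both corrections, with RELB at 0.53 ± 0.06 and NFKBIA at 0.39 ± 0.05 in the coding GC fit. REL had -0.65 ± 0.24 in the coding GC fit and did not pass (edgeR adjusted p = 0.0576).

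**Figure D3:**
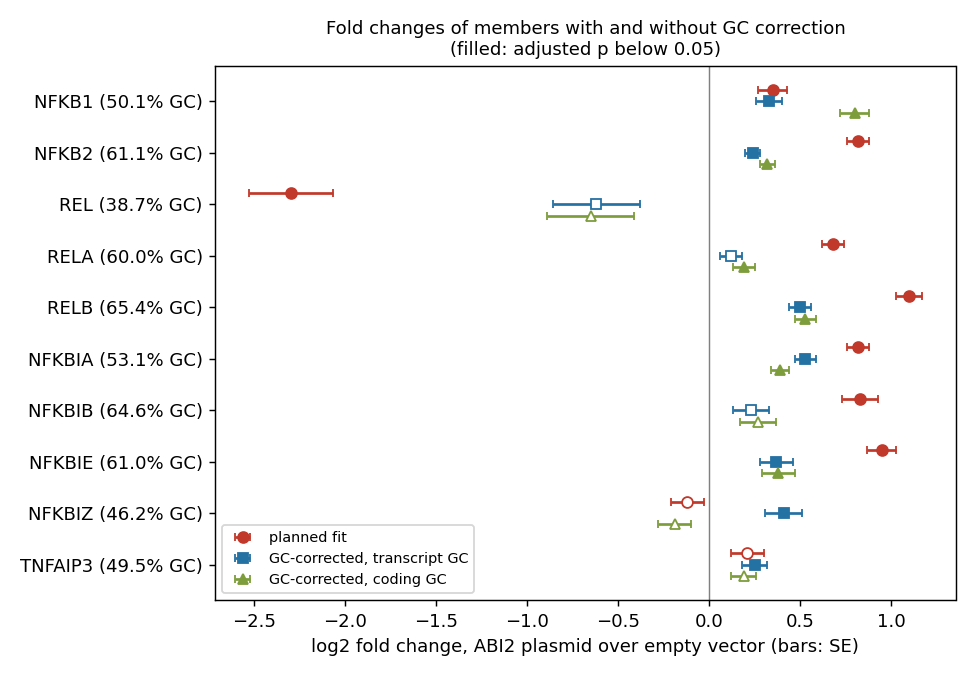
Log2 fold change of each member (x axis, ABI2 plasmid over empty vector, bars are SE) in the planned fit (red circles), with correction for transcript GC (blue squares) and with correction for coding GC (green triangles). Filled symbols passed an edgeR adjusted p of 0.05; both corrections move most members towards 0, REL to -0.62 and -0.65, and they differ for NFKB1 and NFKBIZ.

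Levels between genes were compared per transcript length, as deposited TPM. NFKBIA was the most abundant member in both groups, at 131 ± 7.65 TPM in ABI2 and 81.5 ± 2.1 TPM in control libraries (SD, n = 3 each). RELA followed at 105 ± 4.66 TPM in ABI2 and 72.3 ± 1.72 TPM in control libraries, and NFKB2 at 81.1 ± 4.33 TPM in ABI2 and 50.3 ± 2.05 TPM in control libraries. In the ABI2 libraries the order went on with NFKBIE (47.7 TPM), NFKBIB (47.4 TPM), RELB (35.9 TPM), NFKBIZ (32 TPM), NFKB1 (28.6 TPM) and TNFAIP3 (11.1 TPM). In the control libraries it went on with NFKBIZ (37.4 TPM), NFKBIE (27.8 TPM), NFKBIB (27.6 TPM), NFKB1 (25.0 TPM), RELB (18.0 TPM) and TNFAIP3 (11 TPM). NFKBIE and NFKBIB overlapped in both groups, and NFKBIB and NFKB1 overlapped in the control libraries, while all other neighbours in the order were separated. REL was last, at 0.0843 ± 0.0246 TPM in ABI2 and 0.473 ± 0.0235 TPM in control libraries. On this scale, without GC correction, RELB therefore stood above NFKB1 in every ABI2 library and below it in every control library. The log2 fold changes of RELB and NFKB1 were 1.10 and 0.35 in the planned fit. They were 0.50 and 0.33 with transcript GC, and 0.53 and 0.80 with coding GC.

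The subunits summed to 245, 250 and 257 TPM in the ABI2 libraries, against 165, 163 and 170 TPM in the control libraries. The classical IkB proteins summed to 222, 240 and 215 TPM in the ABI2 libraries, against 142, 134 and 135 TPM in the control libraries. Inhibitors and subunits thus both stood higher, and the ratio of IkB to subunit TPM overlapped between the groups, at 0.907, 0.958 and 0.839 in the ABI2 libraries and 0.860, 0.823 and 0.792 in the control libraries. The TPM ratio of NFKBIA to RELA did not overlap, at 1.249, 1.29 and 1.203 in the ABI2 libraries and 1.109, 1.082 and 1.191 in the control libraries. The make-up of the subunits in TPM differed between the groups. NFKB2 and RELB together made up 46.8%, 46.0% and 47.4% of subunit TPM in the ABI2 libraries, against 40.9%, 40.03% and 42.4% in the control libraries. NFKB1 made up 11.4% ± 0.95 in ABI2 and 15.0% ± 0.79 in control libraries (SD, n = 3 each), and RELA 41.8% ± 1.25 in ABI2 and 43.6% ± 1.94 in control libraries, where the groups overlapped. These shares carry the GC trend with them. The log2 fold change of RELB exceeded that of RELA by 0.42 in the planned fit and by 0.38 in the GC-corrected fit, whereas that of NFKB2 minus that of NFKB1 was 0.46 as planned, -0.09 with the GC correction and -0.48 with the coding GC correction.

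**Figure D4:**
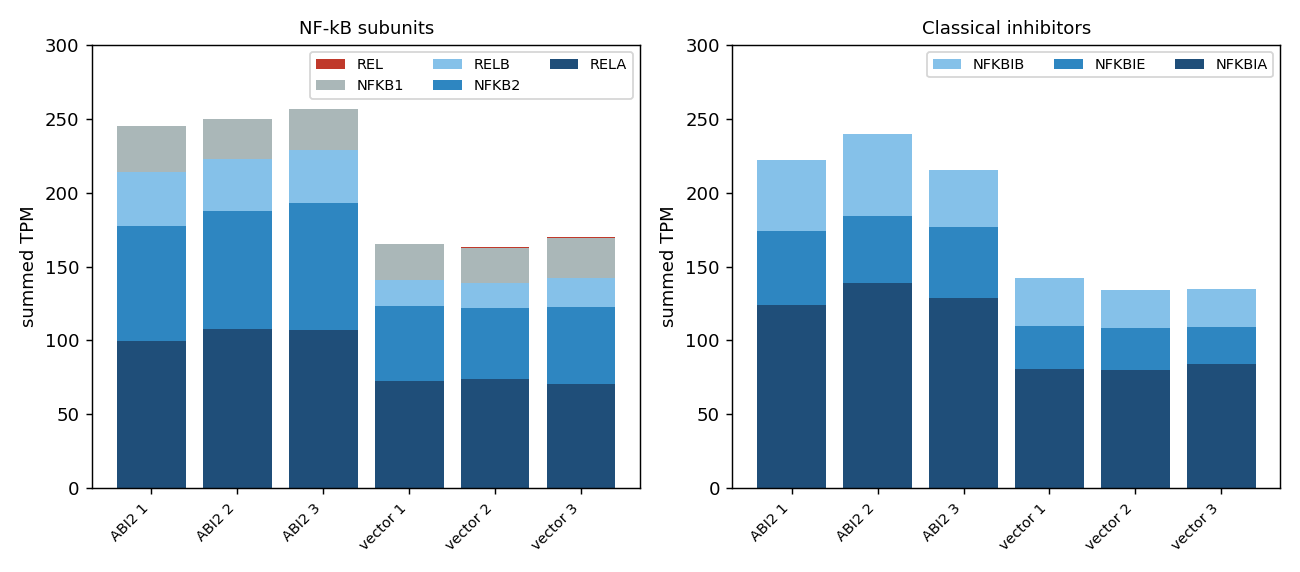
Deposited TPM (y axis, from 0) of the NF-kB subunits (left) and the classical IkB proteins (right), stacked by gene for each of the 3 ABI2 and 3 empty vector libraries. Both stacks are taller in every ABI2 library, and REL is too scarce to show at this scale.

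The deposited values may also hold a trace of which transcripts the authors' TPM calculation used. A count divided by a TPM is proportional to transcript length if both rest on the same assignment of reads. Whether they do is not given. This implied length was set relative to the gene's own mean over the control libraries, and then to the median gene of each library. It changed little for the members. The ratio of ABI2 to control libraries was between 0.947 (NFKBIB) and 1.043 (TNFAIP3), where the central 90% of genes ran from 0.845 to 1.145. NFKBIB varied most within groups, at 0.864, 0.916 and 1.065 in the ABI2 libraries and 0.918, 0.991 and 1.095 in the control libraries. RELB had 0.978, 0.972 and 0.965 in the ABI2 libraries, against 1.002, 1.005 and 0.993 in the control libraries, a small difference in which the groups did not overlap. TNFAIP3 (ratio 1.043) and REL (ratio 1.029) also separated the groups, in the opposite direction. How many of all genes separate on this measure was not counted. The ratios of RELB (0.972), TNFAIP3 and REL lay within the central 90% of genes. The ABI2 gene itself had a ratio of 0.316.

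The pathway genes that act on NF-kB were called in shares near those of all genes. Of 53 pathway genes tested, 23 were higher and 23 lower in the ABI2 libraries while 7 missed the threshold, where 35.1% of all genes were higher and 38.0% lower. Their median log2 fold change was 0.02 and their median GC content 49.6%. Higher and lower are used of genes that passed an edgeR adjusted p of 0.05. Among the receptors, TNFRSF1A, the main TNF receptor, was higher at 142, 152 and 161 CPM in the ABI2 libraries, against 96.1, 96.0 and 98.3 CPM in the control libraries, and LTBR, the lymphotoxin receptor that feeds the noncanonical pathway, at 178 ± 4.84 CPM in ABI2 and 118 ± 6.25 CPM in control libraries (SD, n = 3 each). TLR4, the lipopolysaccharide receptor, was lower at 8.18, 6.85 and 6.42 CPM in the ABI2 libraries, against 51.0, 53.8 and 44.7 CPM in the control libraries. IL1RAP, the co-receptor of the interleukin-1 receptor, was lower at 4.02 ± 0.20 CPM in ABI2 and 21.9 ± 1.68 CPM in control libraries. The adaptor TRAF5 was also lower, at 5.22 ± 0.63 CPM in ABI2 and 19.6 ± 0.52 CPM in control libraries. In the GC-corrected fit TLR4, IL1RAP and TRAF5 stayed lower, with log2 fold changes of -1.17, -1.11 and -0.54, TNFRSF1A had 0.14 and LTBR, at 0.01, no longer passed (edgeR adjusted p = 0.926).

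The IkB kinase complex changed unevenly between its subunits. CHUK, the catalytic subunit needed for NFKB2 processing, was at 10.5, 9.14 and 6.66 CPM in the ABI2 libraries, against 53.7, 60.9 and 51.6 CPM in the control libraries (log2 fold change -2.66, edgeR adjusted p = 2.28e-05). IKBKG, the regulatory subunit, was at 37.6, 41.1 and 36.8 CPM in the ABI2 libraries, against 22.8, 16.9 and 19.5 CPM in the control libraries (log2 fold change 0.96, edgeR adjusted p = 0.000292). IKBKB, the main kinase of IkB-alpha, had 45.7, 45.8 and 42.6 CPM in the ABI2 libraries, against 49.6, 49.8 and 49.7 CPM in the control libraries, and just missed the threshold (log2 fold change -0.15, edgeR adjusted p = 0.0519). Their GC contents were 39.1%, 61.2% and 52.5%. In the GC-corrected fit CHUK stayed lower at -1.02 and IKBKG higher at 0.39, and IKBKB was called lower at -0.40 (edgeR adjusted p = 0.00136). MAP3K14, the kinase upstream of CHUK in the noncanonical pathway, was higher at 57.5 ± 0.51 CPM in ABI2 and 34.7 ± 1.46 CPM in control libraries, by 0.73 on the log2 scale, and by 0.19 with the GC correction.

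Among genes that edit ubiquitin chains in this pathway, 5 of 12 were higher and 6 lower, near the 35.1% higher and 38.0% lower of all genes. With the GC correction 3 were higher and 4 lower, where 28.7% of all genes were higher and 22.5% lower. TNIP1, a partner of TNFAIP3 and a target of NF-kB, was higher at 393, 416 and 415 CPM in the ABI2 libraries, against 193, 197 and 206 CPM in the control libraries (log2 fold change 1.04, and 0.52 in the GC-corrected fit). SHARPIN, a component of the linear ubiquitin ligase, was higher at 188 ± 8.39 CPM in ABI2 and 118 ± 6.88 CPM in control libraries, and at 0.07 no longer passed in the GC-corrected fit (edgeR adjusted p = 0.166). TAX1BP1, another partner of TNFAIP3, was lower at 6.67 ± 0.29 CPM in ABI2 and 36.8 ± 3.44 CPM in control libraries, and BIRC3, a ubiquitin ligase of the TNF receptor complex, at 1.01 ± 0.19 CPM in ABI2 and 7.79 ± 0.78 CPM in control libraries. CYLD, a deubiquitinase that restrains NF-kB, was lower at 32.6, 28.7 and 18.7 CPM in the ABI2 libraries, against 60.5, 78.2 and 77.6 CPM in the control libraries. In the GC-corrected fit TAX1BP1 and BIRC3 stayed lower at -0.94 and -1.08, while CYLD was at 0.14 and no longer passed (edgeR adjusted p = 0.552). All 4 genes of the SCF ligase that marks IkB for destruction were lower in the planned fit, where 38.0% of all genes were lower and 62% to 86.8% in the GC bins these genes lie in. CUL1 was at 23.1 ± 2.29 CPM in ABI2 and 68.6 ± 4.76 CPM in control libraries. In the GC-corrected fit 2 of these 4 were higher and 2 lower, CUL1 at -0.71. With coding GC 2 were higher and 0 lower by edgeR (0 also at an unadjusted p under 0.05), where 31.0% of all genes were higher and 23.4% lower. CUL1 was then at -0.08 (edgeR adjusted p = 0.341). PPP4C, a phosphatase subunit, was higher at 338 ± 17.6 CPM in ABI2 and 207 ± 6.41 CPM in control libraries, and in the GC-corrected fit stayed higher at 0.19. Over the whole list the GC-corrected fit called 15 higher and 15 lower, near the 28.7% higher and 22.5% lower of all genes.

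**Figure D5:**
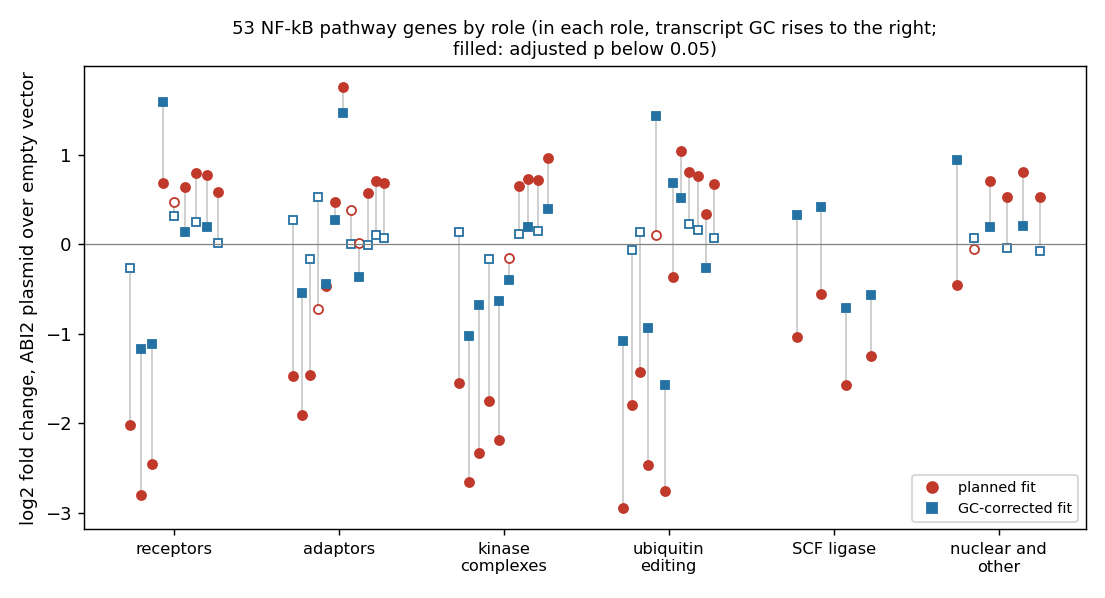
Log2 fold change (y axis, ABI2 plasmid over empty vector) of the 53 pathway genes grouped by role on the x axis, ordered within a role by transcript GC content, in the planned fit (red circles) and the GC-corrected fit (blue squares), joined per gene. Filled symbols passed an edgeR adjusted p of 0.05; the low-GC genes, to the left within each role, are mostly below 0 in the planned fit and move up with the correction.

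Genes known to be induced by NF-kB were more often higher than lower, in a list chosen with earlier results of these data known. Of 36 target genes, 31 passed the filter, of which 19 were higher, 6 lower and 6 missed the threshold. Over all genes 35.1% were higher and 38.0% lower. The targets' median log2 fold change was 0.41, against -0.01 over all genes. Their median GC content was 47.5%. Single targets ran from 33.4% (CXCL8), in the bin where 0.526% of genes rose, to 64.4% (LTB), in the bin where 73.9% rose. CSF2, a colony-stimulating factor, was at 11.7, 11.9 and 11.4 CPM in the ABI2 libraries, against 3.78, 3.14 and 3.10 CPM in the control libraries. CXCL1, a neutrophil chemokine, was at 48.2, 51.9 and 53.2 CPM in the ABI2 libraries, against 22.8, 23.8 and 23.7 CPM in the control libraries. CSF3, PLAU (urokinase) and BCL2L1 (an inhibitor of apoptosis) had log2 fold changes of 1.15, 1.0 and 0.71. Besides BIRC3, the falls with the smallest adjusted p were those of PTGS2 (cyclooxygenase), IL1A, CXCL8, IL1B and TNFAIP8, with log2 fold changes of -1.17, -2.34, -1.31, -0.37 and -1.26. In the GC-corrected fit CSF2, CXCL1, CSF3, PLAU and BCL2L1 stayed higher at 1.75, 1.77, 0.60, 0.74 and 0.22. There PTGS2, CXCL8 and IL1B were called higher, at 0.63, 0.58 and 0.26, IL1A stayed lower at -0.70 and TNFAIP8 did not pass at 0.32 (edgeR adjusted p = 0.191). In all, 20 of the 31 were then higher and 4 lower, with a median of 0.52, where 28.7% of all genes were higher and 22.5% lower. With the coding GC correction 14 were higher and 7 lower, with a median of 0.29, where 31.0% of all genes were higher and 23.4% lower. PTGS2 and IL1B were then at 0.06 and 0.05 and did not pass (edgeR adjusted p = 0.359 and 0.323), while CXCL8 was lower at -0.40. BCL2A1, CCL2 and VCAM1 had no count in any library, and TNF had at most 4 and MMP9 at most 20 counts in a library.

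The patterns of NFKB1 and NFKBIA across the 6 libraries were shared with many genes. By the root mean square difference between mean-centred log2 CPM profiles over the 6 libraries, P3H2 (0.026), LMBR1L (0.026) and RPL37A (0.040) were closest to NFKB1, and SMPD2 (0.022), NINJ1 (0.023) and GFER (0.024) to NFKBIA. The nearest other member was TNFAIP3 for NFKB1 (0.129) and NFKB2 for NFKBIA (0.055). Within a difference of 0.1 lay 605 genes for NFKB1 and 975 genes for NFKBIA.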

How the data were processed

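RNA was sequenced from 6 MDA-MB-231 samples, and groups and replicate numbers came from the sample titles. The authors deposited 1 table with a count, a TPM and an FPKM value per gene and library, per the file headers. The deposited counts were whole and not normalized, TPM as deposited added up to between 999953 and 999992 in each library, and no result uses the deposited FPKM values. The submitters' processing notes name the GRCh38 build and, without their roles, HISAT2 2.1.0, StringTie 1.3.3b, Trimmomatic and FastQC 0.11.2. Annotation, counting program and the setting for strand are not given in these sources. A broken row was left out, which left 20260.

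Counts were tested with edgeR 4.0.16 under R 4.3.3, using the robust quasi-likelihood F test (two-sided) after TMM scaling and filterByExpr at a minimum count of 10. P-values were adjusted by Benjamini-Hochberg over 13325 genes, with a threshold of 0.05. Each standard error is the log2 fold change over the root of its F value. For the GC correction, each library's log2 CPM deviations were fitted with a natural spline (5 degrees of freedom) of transcript GC content from GENCODE release 29 (transcript with the longest coding sequence; 13314 tested genes with a value), and used as offsets. Biological change linked to GC content is then removed as well. Other alternatives were no TMM, no filter, DESeq2 1.42.0, limma 3.58.1 (voom, and log2(TPM + 1)), GC with length, coding GC, a replicate block and leaving out each library. The procedure was tested on simulated counts. Libraries of a group differed by more than counting noise (chi-square per degree of freedom 20.29 to 46.19), so none was a copy.

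The text names all 10 members, the IkB kinase subunits, MAP3K14, CYLD, and up to 6 genes of each list and direction with the smallest adjusted p. The members and lists were chosen with earlier results of these data known. TRAF1, BIRC3 and TNIP1 are in both lists.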

Additional observations from a re-analysis of the deposited data

How the results depend on the processing

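Leaving out each library in turn gave 7 to 8 members higher and 1 lower, 22 to 23 pathway genes higher and 22 to 24 lower, and 19 to 20 targets higher and 6 lower. Of 13447 to 13506 genes tested in these fits, 4369 to 4562 were higher and 4713 to 5012 lower. Log2 fold changes then ran from 0.31 to 0.41 for NFKB1, -2.55 to -2.13 for REL, 0.65 to 0.72 for RELA, 0.73 to 0.89 for NFKBIB, -0.17 to -0.04 for NFKBIZ and 0.17 to 0.26 for TNFAIP3. Without TMM, without the filter and with limma-voom, every member kept its direction and its call. TNFAIP3 passed with DESeq2 (0.22), and NFKB1 missed the threshold on log2(TPM + 1), at 0.19; the cause was not tested. REL was still called lower on that scale, at -0.44, where the added 1 shrinks its change.

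Other calls changed with the GC corrections. With transcript GC, GC with length, coding GC and the replicate block with GC, 0 members were lower, REL was at -0.62, -0.33, -0.65 and -0.64, and NFKBIB was at 0.23, 0.10, 0.27 and 0.23, none of them called. RELA missed the threshold with transcript GC (0.12), GC with length (0.09) and the block with GC (0.12). NFKBIZ reversed to 0.41, 0.46 and 0.41 in these 3 fits, and TNFAIP3 passed at 0.25 and 0.39 with transcript GC and GC with length. In the pathway list 15, 12 and 13 genes were higher with transcript GC, GC with length and the block with GC, and 15, 12, 14 and 15 were lower in the 4 fits. Of all 13325 genes tested, 3820, 3735 and 3478 were higher in those 3 fits, and 2993, 2934, 3116 and 2735 lower in the 4. With GC and length 3 targets were lower. Same-numbered libraries deviated together only weakly (correlations 0.022, 0.018 and 0.061, against -0.048 to 0.025 for unequal numbers). Whether the numbers pair the samples is not given in the labels, and such weak correlations cannot decide it. The replicate block without correction called 7 members higher and 1 lower, the same counts as without it. Of all 13325 genes tested, it called 4548 higher and 4929 lower. REL, with 18 to 31 counts per ABI2 library, had the widest errors of the members in the planned and GC-corrected fits (SE 0.23 and 0.24).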
